A study of Mus musculus with 24 samples.

Results

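The genes described here are Ephx1, Dcxr, Gsto1 and Abcb1b, 4 genes of detoxification among 8750 measured features, selected on the change from the same strain's control in these data, where each of them stood above control in skin at 12 h and some also in lung. Each was read by 1 probe of a mouse cDNA array, and its level is the log2 ratio of the sample over a common reference RNA mixed from 10 organs. A level of 1 is therefore 2-fold above the reference, and 0 is equal to it. Because that change chose the genes, their change from control is given as a description with no test.

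The series held 24 arrays of lung and skin from female A/J, C57BL/6J and C3H/HeMs inbred mice aged 12 to 13 weeks. Gamma rays were given locally in 1 dose, 30 Gy to the hind leg before skin was taken and 10 Gy to the thorax before lung was taken, and tissue was collected 1 h, 12 h or 72 h later. Control mice of the same strain were not irradiated. Every array held RNA pooled from 3 mice, with 1 array per strain, tissue and time, so n = 3 pools in each group and each pool is of another strain. The spread between pools thus holds strain and mouse differences together. The p-values measure only the spread that a fit leaves. The time and tissue fits took out each strain's mean level, and the strain fits that of each time group. Dose, irradiated site and dye all differed between the tissues: skin samples were labelled with Cy5 and lung samples with Cy3, so these cannot be told apart from the tissue in any skin and lung comparison.

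Foreign and internally made chemicals are cleared in steps. Enzymes such as epoxide hydrolases and carbonyl reductases first convert reactive groups, glutathione transferases then use the thiol of glutathione to conjugate or reduce them, and ATP-driven pumps move the products out of the cell. Ephx1 is the microsomal epoxide hydrolase, which turns epoxides into diols. Dcxr, dicarbonyl and L-xylulose reductase, reduces sugar-derived and other carbonyls. Gsto1 is an omega-class glutathione transferase that also reduces dehydroascorbate. Abcb1b encodes a P-glycoprotein of rodents, an efflux pump for many lipophilic compounds, and Abcb1a encodes its close relative.

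The bases just upstream of each gene are shown so that genes that were chosen for a shared rise can be compared by sequence. RefSeq promoter tables on the mouse build GRCm38.p6 held all 4. Each sequence is the 250 bases before the annotated start, read 5′ to 3′ along the strand of the gene. The windows are chr1:181017570-181017819 on the minus strand for Ephx1, chr11:120727285-120727534 on the minus strand for Dcxr, chr19:47854723-47854972 on the plus strand for Gsto1 and chr5:8797897-8798146 on the plus strand for Abcb1b. Capitals mark the matches to the motifs searched on both strands, which were the p53 consensus half-site, the antioxidant response element core TGACNNNGC, the CCAAT box CCAAT, the GC box GGGCGG and the TATA box TATAAA.
Ephx1: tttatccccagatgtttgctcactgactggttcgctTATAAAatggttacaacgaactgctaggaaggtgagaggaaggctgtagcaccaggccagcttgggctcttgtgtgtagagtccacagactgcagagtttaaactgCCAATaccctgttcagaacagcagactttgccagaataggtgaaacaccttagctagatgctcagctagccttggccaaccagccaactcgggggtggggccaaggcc
Dcxr: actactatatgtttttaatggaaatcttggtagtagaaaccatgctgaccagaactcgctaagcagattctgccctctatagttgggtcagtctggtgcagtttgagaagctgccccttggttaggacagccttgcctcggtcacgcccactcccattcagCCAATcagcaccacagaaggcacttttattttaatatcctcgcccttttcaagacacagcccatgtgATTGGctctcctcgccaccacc
Gsto1: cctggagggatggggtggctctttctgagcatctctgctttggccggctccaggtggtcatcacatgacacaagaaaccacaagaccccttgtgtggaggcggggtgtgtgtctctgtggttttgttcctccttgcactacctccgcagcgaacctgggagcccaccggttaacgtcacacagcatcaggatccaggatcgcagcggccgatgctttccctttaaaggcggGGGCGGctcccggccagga
Abcb1b: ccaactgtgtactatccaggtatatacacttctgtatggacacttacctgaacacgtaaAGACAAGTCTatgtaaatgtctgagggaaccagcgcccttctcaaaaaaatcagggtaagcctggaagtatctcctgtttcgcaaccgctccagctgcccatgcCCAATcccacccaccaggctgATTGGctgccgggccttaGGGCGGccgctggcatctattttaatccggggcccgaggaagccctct

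A p53 half-site match stood only in the Abcb1b window, as AGACAAGTCT from 191 to 182 bases before the start. Such a match was present in 7.13% of all 32851 promoter windows of this length. CCAAT matches stood in 3 of the 4 windows, with 1 in Ephx1 and 2 each in Dcxr and Abcb1b, and in 33.8% of all windows. A GC box match stood in the Gsto1 and Abcb1b windows and in 32.7% of all windows. The TATA match of Ephx1 began 214 bases before the start, and 12.4% of all windows held one. No member window held the antioxidant response element core, which 10.2% of all windows held. None of the matches overlapped another, and a match describes the letters alone.

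**Figure D1:**
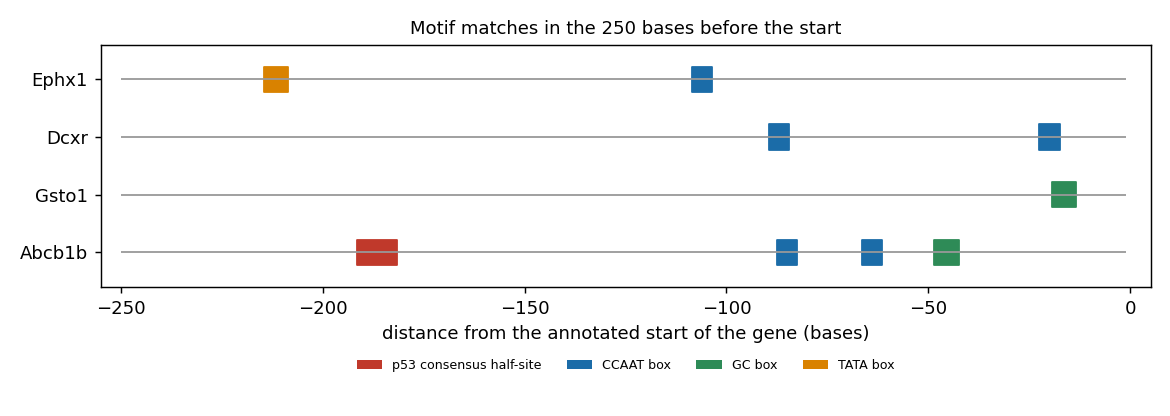
Motif matches in the 250 bases before the start of each gene, with the distance from the start in bases on the x axis and 1 row per gene. Abcb1b holds 4 matches (1 p53 half-site, 2 CCAAT boxes and 1 GC box), and Gsto1 holds a single GC box 19 to 14 bases before the start.

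Before the levels were read, the arrays were checked against tissue markers. All 7 measured epidermal markers stood above the reference in skin (median level 5.32) and all 6 measured lung epithelium markers did so in lung (median level 2.73). In the other tissue 1 of each list was also above it, Klk7 in lung (0.13) and Scgb3a1 in skin (2.10). Of 10 endothelial markers, 0 were above the reference in skin and 10 in lung. In lung, the 12 h and 72 h arrays of C3H/HeMs and of A/J formed a set of their own: over all features their correlation with the other 8 lung arrays was 0.80 to 0.89, against 0.90 to 0.96 among those 8. They also held 115 to 674 ratios of exactly 0, against 1 to 23 on the others. Lung values are therefore also given for C57BL/6J, whose 4 arrays all belong to the larger set. Among the 12 skin arrays the correlation was 0.77 to 0.95, so at its lowest no higher than between the lung sets. The skin arrays held 0 to 42 ratios of exactly 0. None of the ratios of the 4 genes was exactly 0 or at the limit of the deposited scale. These are whole tissues, in which fewer cells of a type and less RNA per cell cannot be told apart.

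Ephx1 was high at 12 h and 72 h in both tissues. Its A/J skin series was -0.16 in the control, -0.26 at 1 h, 1.62 at 12 h and 1.07 at 72 h. The C57BL/6J skin series was 0.25, -0.38, 1.76 and 1.40, and the C3H/HeMs skin series 0.86, 0.58, 1.82 and 0.96. At 12 h the strains lay within 0.20 of each other, whereas their controls spanned 1.02, and all pools at 12 h and 72 h stood above all controls. The mean change from the same strain's control was -0.34 ± 0.27 at 1 h, 1.42 ± 0.42 at 12 h (2.67-fold) and 0.83 ± 0.63 at 72 h (1.77-fold; log2, SD, n = 3 strains). At 72 h the C3H/HeMs pool stood 0.10 above its control, against 1.22 in A/J and 1.16 in C57BL/6J. Ranked by mean change among 8750 features, its place from the top in skin was 47 at 12 h and 453 at 72 h. The measured paralog Ephx2, the soluble epoxide hydrolase, changed by 0.22 ± 1.29 in skin at 12 h, with strains on both sides of 0, and its levels in lung, from -4.59 to -3.11, were far below the reference.

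The lung pools of Ephx1 were close to each other at each time. In A/J lung, the Ephx1 level was 0.19 in the control, 0.20 at 1 h, 2.17 at 12 h and 1.82 at 72 h. In C57BL/6J lung it was 0.66, 0.54, 2.17 and 1.86 at the same points, and in C3H/HeMs lung 0.51, 0.28, 2.43 and 2.11. All lung pools at 12 h and 72 h were above all control pools, while those at 1 h lay among the controls. The mean change was -0.12 ± 0.12 at 1 h, 1.80 ± 0.25 at 12 h and 1.48 ± 0.24 at 72 h. The last 2 values are 3.49-fold (2.86- to 3.95-fold by strain) and 2.78-fold (2.30- to 3.09-fold), places 8 and 9 from the top. Without the 4 arrays that stand apart, the C57BL/6J pool alone gave 1.51 at 12 h and 1.20 at 72 h.

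Dcxr was the member with the largest change in skin and, with arrays centred on their medians, the smallest spread between strains in lung at 12 h. The A/J skin series of Dcxr was -1.17 in the control, -1.33 at 1 h, 1.29 at 12 h and 0.75 at 72 h. In C57BL/6J skin Dcxr had -0.86, -1.13, 1.44 and 0.54, and in C3H/HeMs skin -0.21, -0.17, 1.77 and 0.49. Thus every control and 1 h skin pool lay below the reference RNA, and every 12 h and 72 h pool above it. The mean change was -0.13 ± 0.16 at 1 h, 2.24 ± 0.25 at 12 h and 1.34 ± 0.62 at 72 h. At 12 h this is 4.74-fold (3.92- to 5.51-fold by strain), place 6 of 8750, and at 72 h it is 2.53-fold (1.62- to 3.80-fold), place 110.

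In lung the Dcxr levels started higher and moved less. The series was 0.49, 0.24, 1.20 and 1.12 for A/J lung, 0.37, 0.34, 1.15 and 0.91 for C57BL/6J lung, and 0.27, 0.22, 1.14 and 0.54 for C3H/HeMs lung, from control through 1 h and 12 h to 72 h. The 12 h pools lay within 0.06 of each other and above every control, and the 72 h pools were also above every control, the nearest by 0.05. The mean change was -0.11 ± 0.12 at 1 h, 0.79 ± 0.08 at 12 h (1.72-fold, place 103) and 0.48 ± 0.19 at 72 h (1.39-fold, place 466). The C57BL/6J change alone was 0.78 at 12 h and 0.54 at 72 h, so the lung change of Dcxr at 12 h was of the same size within the larger set of arrays.

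Gsto1 was above its skin controls at all times after irradiation, and its lung pools overlapped their controls. The A/J skin series of Gsto1 was 0.36 in the control, 0.48 at 1 h, 1.65 at 12 h and 1.49 at 72 h. The C57BL/6J skin series was 0.28, 1.00, 1.45 and 1.31, and in C3H/HeMs skin the values were 0.13, 0.74, 1.98 and 1.82. Among the members, only Gsto1 had all 3 skin pools above all 3 controls already at 1 h, by a gap of 0.12 between the nearest arrays. Its mean change in skin was 0.48 ± 0.32 at 1 h, 1.44 ± 0.36 at 12 h (2.71-fold, place 41) and 1.28 ± 0.36 at 72 h (2.43-fold, place 127).

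In lung the Gsto1 controls of A/J and C3H/HeMs stood at -0.15 and -0.09 and that of C57BL/6J at 0.80. From 1 h to 72 h, A/J lung had -0.40, 0.39 and 0.07, C57BL/6J lung 0.89, 0.74 and 0.22, and C3H/HeMs lung -0.12, 0.96 and 0.60. Irradiated and control pools overlapped at every time. The mean change was -0.06 ± 0.17 at 1 h, 0.51 ± 0.56 at 12 h and 0.11 ± 0.64 at 72 h. By strain the 12 h change was 1.05 in C3H/HeMs, 0.54 in A/J and -0.06 in C57BL/6J, and the 72 h change 0.69, 0.22 and -0.58. The strains in which Gsto1 was above its control are those whose 12 h and 72 h arrays stand apart, so strain and array set cannot be told apart in lung. The lung epithelium list moved in the same pools, with a median change over 6 genes at 12 h of 0.80 in C3H/HeMs, 0.51 in A/J and -0.09 in C57BL/6J, and its part in the Gsto1 values was not tested.

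Abcb1b was high in skin at 12 h and 72 h, while its lung pools overlapped the controls. The A/J skin series of Abcb1b was -1.18 in the control, -0.60 at 1 h, 0.71 at 12 h and 0.59 at 72 h. In C57BL/6J skin it was -0.78, -0.84, 0.62 and -0.24, and in C3H/HeMs skin -0.71, -0.27, 1.29 and 0.13. All controls were below the reference, all 12 h pools were above it, and the 72 h pools lay between. The mean change was 0.32 ± 0.33 at 1 h, 1.76 ± 0.31 at 12 h and 1.05 ± 0.64 at 72 h. At 12 h this is 3.38-fold (2.64- to 3.98-fold by strain), place 19 of 8750, and at 72 h 2.07-fold (1.46- to 3.40-fold), place 229.

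The lung levels of Abcb1b ran from -1.57 to -0.87 over all 12 arrays, and irradiated and control pools overlapped at every time. The A/J series was -1.25, -1.30, -0.87 and -1.57, the C57BL/6J series -0.93, -1.20, -1.02 and -1.45, and the C3H/HeMs series -1.39, -1.10, -1.36 and -1.31. Mean changes were -0.01 ± 0.29 at 1 h, 0.11 ± 0.24 at 12 h and -0.25 ± 0.30 at 72 h, each smaller than its SD. Abcb1a, the other multidrug P-glycoprotein gene of mice, had a skin change of 0.03 ± 0.40 at 12 h with strains on both sides of 0, and a lung change of 0.31 ± 0.62. Abcb4, which encodes the phospholipid exporter of bile, had a skin change of 0.67 ± 0.34 at 12 h, in all 3 strains upward, and of 0.07 ± 0.43 at 72 h. These genes are close in sequence, and cross-hybridization between their cDNA probes was not tested.

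**Figure D2:**
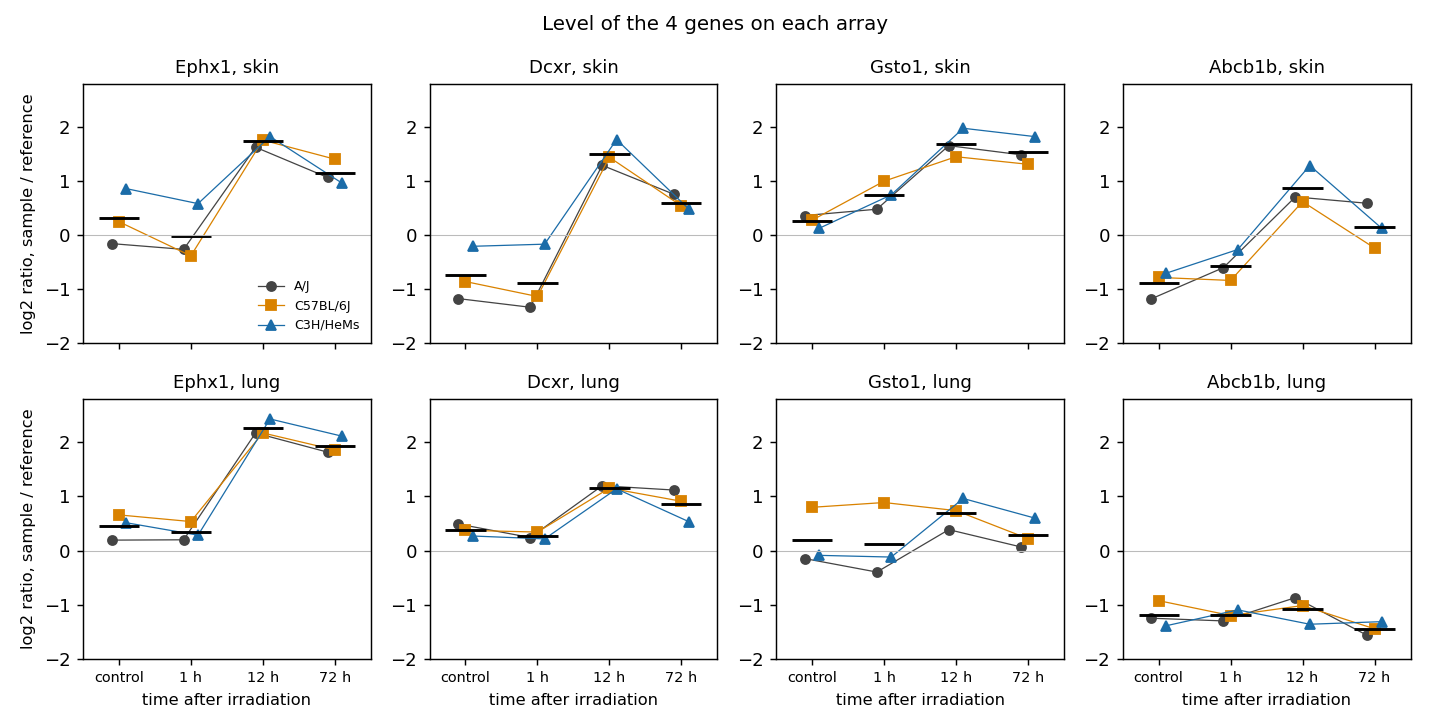
Level of each gene (log2 ratio of sample over reference RNA) on each of the 24 arrays against time after irradiation, skin above and lung below, with a symbol per strain and a black bar at the mean of 3 strains. In skin all 4 genes are highest at 12 h in every strain, while in lung Ephx1 and Dcxr are, and Abcb1b stays between -1.57 and -0.87.

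Counted over the members, all 3 irradiated pools stood above all 3 controls in skin for 1 of 4 genes at 1 h, 4 of 4 at 12 h and 4 of 4 at 72 h. Over all features the same was so for 2.59%, 3.63% and 4.19%. In lung the counts were 0, 2 and 2 of 4, and the shares over all features 3.53%, 6.39% and 7.15%. In skin at 12 h, 3 of the 4 genes (Dcxr, Gsto1 and Abcb1b) were at least 2-fold above control in every strain, as were 0.251% of features, and at 72 h 1 of 4 (Gsto1), as were 0.183%. In lung only Ephx1 was, at 12 h and 72 h, beside 0.149% and 0.0800% of features. These counts restate the choice of the genes and are not read further.

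The levels were lower at 72 h than at 12 h. In skin the 72 h minus 12 h difference was -0.59 ± 0.26 for Ephx1, -0.90 ± 0.37 for Dcxr, -0.15 ± 0.01 for Gsto1 and -0.71 ± 0.54 for Abcb1b, and negative in 3 of 3 strains for each. In lung it was -0.33 ± 0.02 for Ephx1, -0.31 ± 0.27 for Dcxr and -0.40 ± 0.10 for Gsto1, again negative in 3 of 3 strains, and -0.36 ± 0.38 for Abcb1b, negative in 2 of 3. Gsto1 in skin thus kept the most of its 12 h level, with strain differences from -0.17 to -0.14.

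The size of the change differed by tissue, at doses that also differed. The change in skin minus the change in lung at 12 h was -0.39 ± 0.50 for Ephx1, lower in skin in 3 of 3 strains though by only 0.01 in C57BL/6J. It was 1.46 ± 0.33 for Dcxr, 0.93 ± 0.26 for Gsto1 and 1.65 ± 0.27 for Abcb1b, higher in skin in 3 of 3 strains each. At 72 h the differences were -0.65 ± 0.76, 0.86 ± 0.44, 1.17 ± 0.38 and 1.30 ± 0.69 in the same order of genes, with the same direction in 3 of 3 strains. For comparison, Cdkn1a, the cell cycle inhibitor that marks the p53 response to radiation, changed by 0.82, 1.51 and 0.92 in skin and by 2.23, 2.71 and 2.54 in lung at 1 h, 12 h and 72 h. Cdkn1a was thus already high at 1 h in lung, when the mean change of each of the 4 genes was smaller than its SD. In skin at 1 h the 4 genes were on both sides of 0. Gsto1 had 0.48, Abcb1b 0.32, Dcxr -0.13 and Ephx1 -0.34, beside 0.82 for Cdkn1a.

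**Figure D3:**
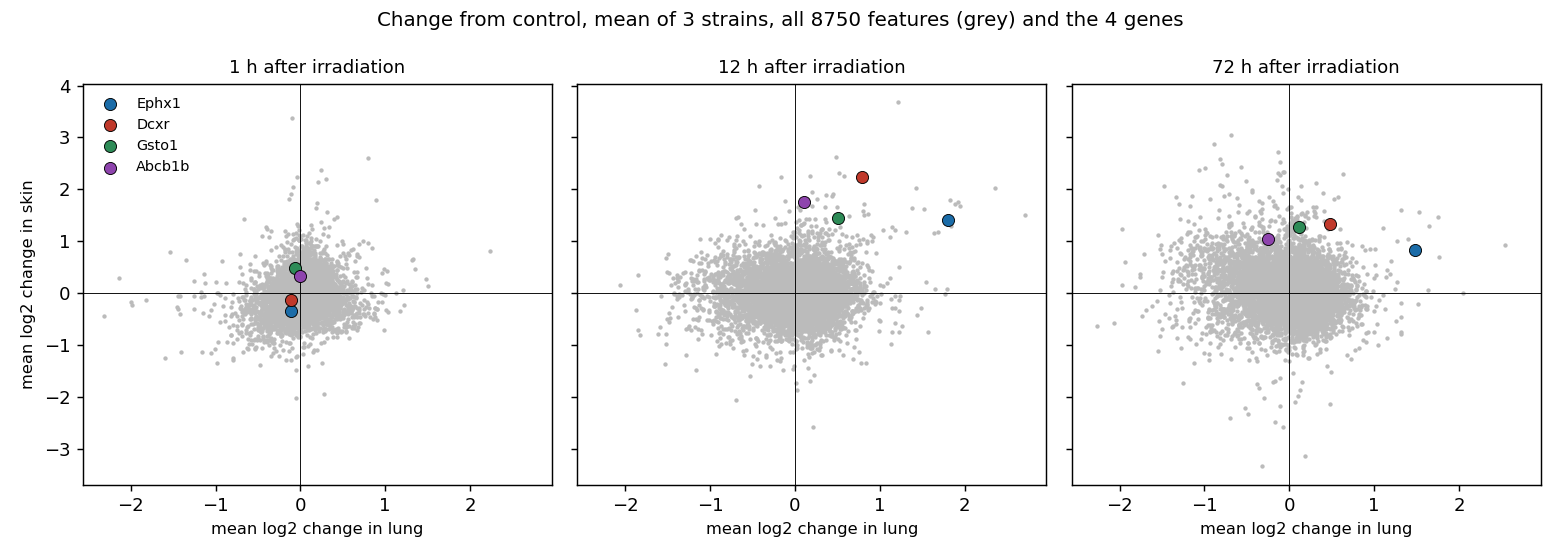
Mean log2 change from control in skin (y axis) against lung (x axis) at 1 h, 12 h and 72 h, for all 8750 features in grey and the 4 genes in colour (means of 3 strains). At 12 h Ephx1 lies far to the right (lung 1.80, skin 1.42), while Abcb1b lies high near the vertical axis (skin 1.76, lung 0.11).

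The level of each gene was also set side by side in the tissues. Over control and irradiated pools together, Abcb1b averaged -0.11 ± 0.21 in skin and -1.23 ± 0.07 in lung (SD, n = 3 strains), and skin minus lung was 1.12 ± 0.16 (SE). Gsto1 averaged 1.06 ± 0.10 in skin and 0.32 ± 0.34 in lung, with a difference of 0.73 ± 0.18. Ephx1 was lower in skin, at 0.79 ± 0.25 against 1.25 ± 0.13 in lung, with a difference of -0.45 ± 0.14, and without the 4 lung arrays that stand apart it was 0.16 ± 0.25. Dcxr had 0.12 ± 0.31 in skin and 0.67 ± 0.11 in lung, with a difference of -0.55 ± 0.20. These means contain the irradiated pools whose rise chose the genes, so they are given with no p.

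Control pools alone gave another order. Dcxr was at -0.75 ± 0.49 in control skin and 0.38 ± 0.11 in control lung, a difference of -1.12 ± 0.29 (SE), lower in skin in 3 of 3 strains. The control difference was 0.30 ± 0.24 for Abcb1b, 0.07 ± 0.27 for Gsto1 and -0.14 ± 0.25 for Ephx1. The controls also entered the change that chose the genes, and a low control makes a rise larger, so these differences too are descriptions with no p. The paralog Abcb1a, which was not chosen for a rise, had a control level of -0.87 ± 0.22 in skin and 0.95 ± 0.28 in lung, a difference of -1.82 ± 0.24 (limma adjusted p = 0.00365, in a comparison that 51.0% of features passed).

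The strains were compared by their mean level over the 4 arrays of a tissue. None of the 8 limma F tests of the members passed, with adjusted p from 0.213 to 0.782, where 0.377% of features passed in skin and 2.95% in lung. The smallest was Gsto1 in lung, at 0.66 ± 0.30 in C57BL/6J, 0.34 ± 0.53 in C3H/HeMs and -0.02 ± 0.33 in A/J (SD over 4 arrays). Its C57BL/6J minus A/J difference was 0.68 ± 0.24 (SE, limma unadjusted p = 0.0178, adjusted p = 0.129), a contrast in which 3.68% of features passed. In skin the largest strain range was that of Dcxr, at 0.47 in C3H/HeMs and -0.12 in A/J, a difference of 0.59 ± 0.23 (SE, limma adjusted p = 0.222), where 0.251% of features passed. With 4 arrays per strain that differ in treatment, differences of this size were not separable from the spread.

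The members followed each other closely in skin and in part in lung. After each strain's own mean was taken off, Pearson's r over the 12 skin arrays was 0.97 for Ephx1 with Dcxr, 0.95 for Dcxr with Abcb1b, and 0.71 to 0.87 for the other pairs. In lung it was 0.94 for Ephx1 with Dcxr, 0.62 and 0.57 for Gsto1 with these genes, and -0.07 to 0.26 for the pairs with Abcb1b. All of these points share arrays and the same time course, so r describes the common shape and is not tested.

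By the same measure over 5694 named genes, the nearest gene to Ephx1 in skin was Dcxr (0.974), followed by the tetraspanin gene Cd81 (0.945) and the phosphatase gene Ptp4a3 (0.924). Dcxr was nearest to Ephx1, then to Ptp4a3 (0.964) and Exoc4 (0.947). Ptp4a3 changed by 1.81 ± 0.65 in skin at 12 h and by 0.26 ± 0.18 in lung, beside 2.24 and 0.79 for Dcxr. The nearest to Abcb1b were Dcxr (0.946), the snoRNA host gene Snhg15 (0.937) and the phosphomannomutase gene Pmm1 (0.927). The nearest to Gsto1 were the Golgi SNARE gene Gosr1 (0.936), Snhg15 (0.925) and Lxn (0.894). Snhg15 itself changed by 1.01 ± 0.42 in skin and 0.85 ± 0.22 in lung at 12 h, upward in 3 of 3 strains in each.

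In lung, the patterns most like that of Ephx1 were those of Ctsf, the lysosomal protease cathepsin F (r = 0.996), Exoc4, a subunit of the vesicle-tethering exocyst (0.991), and Bscl2, the lipid droplet protein seipin (0.966). Ctsf changed by 1.18 ± 0.14 in skin and 1.69 ± 0.31 in lung at 12 h, beside 1.42 and 1.80 for Ephx1. For Dcxr in lung the nearest were Polr2a, the large subunit of RNA polymerase II (0.969), the matricellular gene Ccn5 (0.969) and Exoc4 (0.957). For Gsto1 in lung they were Dtnbp1 (0.984), Ccni (0.978) and B2m, the light chain of MHC class I (0.961). B2m had a lung change at 12 h of 0.80 in C3H/HeMs, 0.13 in A/J and -0.09 in C57BL/6J, the order of strains seen for Gsto1. For Abcb1b in lung the values were lower, with Col12a1 (0.876), Bnip2 (0.873) and Adh5 (0.863).

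The wider set of detoxification genes, 131 measured genes in 6 lists that leave the members out, is given beside these 4. In limma fits over all features, 0 of 131 passed an adjusted p of 0.05 at any time in either tissue, where 0 features passed in skin at 1 h, 12 h or 72 h and 1, 10 and 10 of 8750 in lung (0.0114%, 0.114% and 0.114%). At an unadjusted p under 0.05, 13 list genes were higher and 9 lower in skin at 12 h (16.8% of the 131 in all). In lung 12 were higher and 3 lower (11.5% in all). Over all features, 2.99% were higher and 3.71% lower by this measure in skin at 12 h (6.71% in all), and 6.98% higher and 5.07% lower in lung (12.1% in all). The median change of the 131 genes was 0.03 in skin and 0.16 in lung at 12 h, beside -0.03 and 0.07 over all features. At 1 h, 1 gene was higher and 6 lower in each tissue by this measure (5.34% of the 131). Over all features these shares were 1.87% and 2.49% in skin (4.37% in all) and 1.27% and 0.971% in lung (2.24% in all). At 72 h 4 were higher and 9 lower in skin (9.92% of the 131), beside 3.95% and 3.44% of all features (7.39% in all). In lung 15 were higher and 4 lower (14.5% of the 131), beside 6.72% and 5.68% of all features (12.4% in all).

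By list at 12 h, the 13 measured glutathione transferase genes had a median change of 0.08 in skin and 0.27 in lung. The lung medians of all lists include the A/J and C3H/HeMs arrays that stand apart, and were not taken for C57BL/6J alone. Ltc4s, leukotriene C4 synthase, had 1.58 in skin, of which C57BL/6J gave 3.35, and 0.80 in lung, while Gstm2 had -0.58 in skin and Gsta2 0.71 in lung. The 27 glutathione synthesis and NRF2 antioxidant genes had medians of 0.08 and 0.12, in skin and then in lung. Among them the metallothionein gene Mt1 had 1.24 and the glutaredoxin gene Glrx 0.60 in skin, and the glutathione synthetase gene Gss 0.40 and the mitochondrial thioredoxin gene Txn2 -0.34 in lung. In C57BL/6J lung alone, Ltc4s had 0.30, Gsta2 0.16, Gss 0.23 and Txn2 -0.22. None of the named changes passed the adjusted test.

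The 29 carbonyl and aldehyde metabolism genes, the list nearest to Dcxr, had medians of -0.06 in skin and 0.02 in lung. Hsd17b12, a reductase of fatty acid elongation, had 0.76 and the aldo-keto reductase gene Akr1c20 -1.18 in skin, while Akr1e1 had 0.47 and Aldh1a2, which makes retinoic acid, -0.49 in lung. The 25 epoxide hydrolase and P450 genes, the list nearest to Ephx1, had medians of -0.05 and 0.21. Cyp7b1, an oxysterol hydroxylase, had 1.42 and Cyp4a14 -0.77 in skin, and Cyp2d9 had 1.18 and Cyp4b1 0.47 in lung. For each of these P450 genes all 3 strains had the same direction. In C57BL/6J lung alone, Akr1e1 had -0.16, Aldh1a2 -0.22, Cyp2d9 0.83 and Cyp4b1 0.07.

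The 10 conjugation and ester hydrolysis genes had medians of -0.14 in skin and 0.19 in lung. Their named genes were the nicotinamide methyltransferase gene Nnmt (0.99 in skin and -0.46 in lung), Pon3 (0.70 in skin) and Ces1d (0.58 in lung). The 27 ABC transporter genes, the list nearest to Abcb1b, had medians of 0.08 and 0.17. The efflux pump gene Abcg2 had 0.72 in skin, with 0.58 to 0.83 by strain, and Abcc10 had 1.33 with strains on both sides of 0, while Abcd4 had 0.59 and Abcc3 0.44 in lung. In C57BL/6J lung alone, Nnmt had -0.04, Ces1d -0.08, Abcd4 0.14 and Abcc3 0.22. None of the 131 genes was at least 2-fold higher in all 3 strains at any time.

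**Figure D4:**
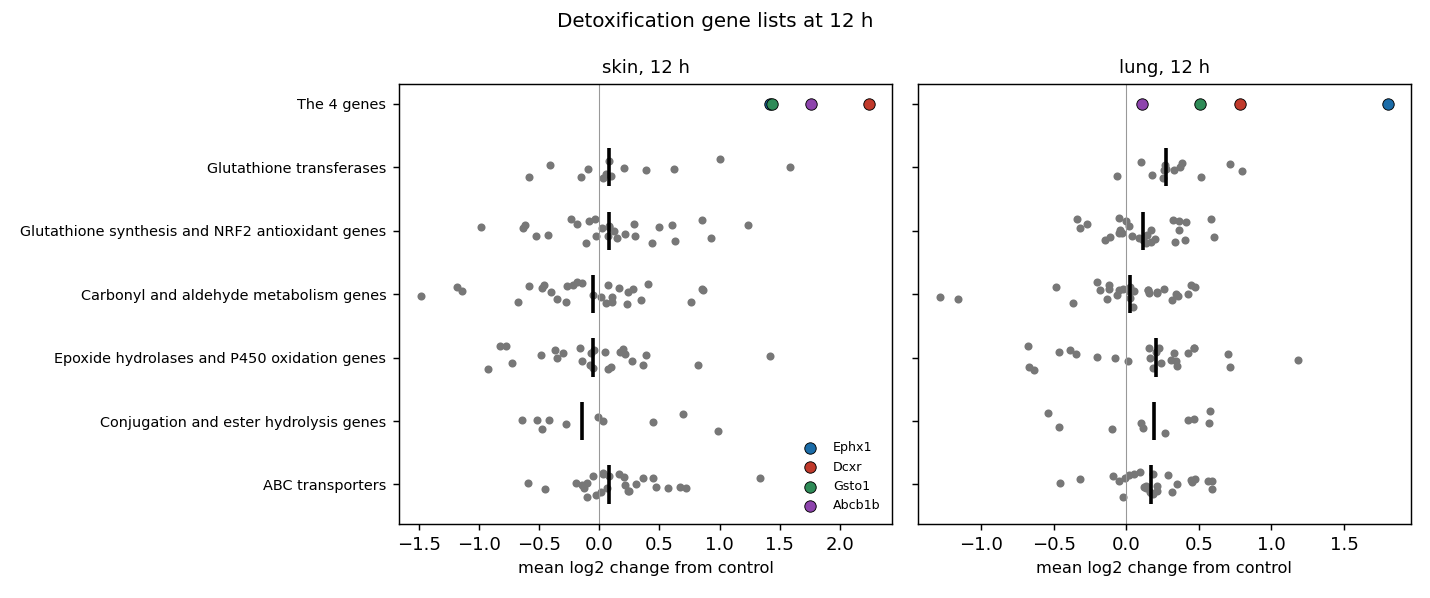
Mean log2 change from control at 12 h (x axis, means of 3 strains) of each measured gene in 6 detoxification lists (grey, black bar at the list median) and of the 4 genes (coloured, top row), skin at left and lung at right. List medians lie between -0.14 and 0.08 in skin and between 0.02 and 0.27 in lung.

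Other cell types' markers also moved in these tissues. In skin the mean level over the 15 measured skeletal muscle genes ran by strain from -1.40 to -0.49 at 12 h. It ran from -1.15 to -0.39 at 72 h, against -1.31 to 1.13 in controls. The median change of these genes was -2.63 at 12 h and -2.39 at 72 h in C3H/HeMs, -0.32 and -0.30 in C57BL/6J, and 0.44 and 0.50 in A/J. In C3H/HeMs Ephx1 and Dcxr had their highest skin control levels and their smallest skin changes at 12 h and 72 h. Gsto1 went the other way there, with its lowest skin control level and its largest changes (1.85 at 12 h and 1.69 at 72 h). Abcb1b had its largest 12 h change in C3H/HeMs skin (1.99), and at 72 h its change there (0.83) lay between the other strains. The mean level over the 11 macrophage and monocyte genes ran by strain from 0.24 to 1.20 in skin at 12 h, against -0.43 to 0.31 in controls. On average 10 of the 11 genes were above control. Their median change was 1.55 in C57BL/6J, 0.42 in A/J and -0.36 in C3H/HeMs. The median change in skin at 12 h was 1.14, 0.34 and 0.64 for the 8 neutrophil genes and 0.83, 0.24 and 0.17 for the 10 endothelial genes, in the same order of strains and upward in each. In lung the mean level over the 10 B cell genes ran by strain from -1.26 to -0.89 at 12 h, against -0.56 to -0.10 in controls. No gene of these lists passed the adjusted limma test, no marker list was at 0, and the part of these shifts in the values of the 4 genes was not tested.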

How the data were processed

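RNA from lung and skin was hybridized with a common reference on 2-colour Agilent mouse cDNA arrays. The authors deposited log10 ratios of Cy5 over Cy3 made with Agilent Feature Extraction, per the submitters' processing notes, and limited to ±2. The sources used here do not give its version, background or dye steps, no intensities were used, and depth here means only the number of arrays.

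Lung ratios, in which the sample carried Cy3 per the labels, were turned in sign, and all were multiplied by 3.32 to log2 and centred on each array's median. The direction was checked against tissue markers (Sftpc averaged -6.53 in skin and 2.36 in lung, Krt10 5.15 and -3.25). The Sftpc value in skin (SD 0.04 over 12 arrays) lies at the lower limit of the deposited scale, so it is a floor. Of 9275 probes, 6433 had 1 gene symbol in the platform annotation, 381 several and 2461 none. Probes of a symbol were averaged, giving 8750 features.

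limma 3.58.1 in R 4.3.3 was fitted per tissue to 12 arrays with 4 groups and strain as the block (6 residual degrees of freedom), with Benjamini-Hochberg adjustment over all features. Strain and tissue levels had fits of their own, the last on strain means (2 residual degrees of freedom). Fits were tested on simulated data. The fits ran over all features, members included. No p is printed for the members' change or skin against lung level, which contain the values that chose them. The strain levels contain these values too. Their p-values are printed, from fits that took out the mean of each time group. No set test was run.

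Members and lists were chosen with earlier results of these data known. Named genes are the members, their paralogs Ephx2, Abcb1a and Abcb4, Cdkn1a, the 3 genes of highest Pearson's r per member and tissue, and the 2 of smallest p per list where none passed, printed at 12 h. Tissue and cell type markers served as checks. Alternatives were centring, quantile normalization, ratios of 0 or at the limit as missing, each strain left out, the 4 lung arrays left out or blocked, and other fits.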

Additional observations from a re-analysis of the deposited data

Results flagged for a closer look

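Hsd17b12, the reductase of fatty acid elongation, had opposite directions in the tissues at 12 h. Its change was 0.76 ± 0.10 in skin and -0.18 ± 0.21 in lung (log2, SD, n = 3 strains), upward in every skin pool and downward in every lung pool, and the change in skin minus that in lung was 0.94. In C57BL/6J the lung value was -0.015, and the lung mean lies within its SD. The difference was not tested.

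Nnmt, the nicotinamide methyltransferase gene, did the same at 12 h, with 0.99 ± 0.82 in skin and -0.46 ± 0.39 in lung, and 1.45 for skin minus lung. In C57BL/6J the lung value was -0.04. This difference was not tested either. Dose, site and dye differ between the tissues and cannot be told apart from them.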

How the results depend on the processing

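The deposited ratios come from 1 array per strain, tissue and time, so each strain's change rests on single arrays, and leaving out a strain leaves 2. Without the 4 lung arrays that stand apart, the lung change of Ephx1 was 1.51 at 12 h and 1.20 at 72 h and that of Gsto1 -0.061 and -0.58, each from C57BL/6J alone. Quantile normalization gave 0.68 ± 0.23 for Dcxr in lung at 12 h and 1.65 ± 0.18 for Ephx1 (SD), so Dcxr no longer had the smallest spread. No centring or quantile normalization shifted the median change of all features by more than 0.054. With ratios of exactly 0 or at the limit set to missing, every mean change of a member moved by less than its SD.

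Features passing the limma adjusted p of 0.05 in lung numbered 1, 10 and 10 at 1 h, 12 h and 72 h. With only the compared groups in the fit, or without the 4 arrays, 0 passed at each time. With the array sets as a block, 6 passed at 12 h and 0 at 72 h. With a strain left out, 0 passed at 1 h, 0 to 6 at 12 h and 0 to 1 at 72 h. With no replicate block, 6 passed at 72 h. In skin 0 passed at every time with any strain left out, and so it was for the 131 list genes in both tissues. The unadjusted p was under 0.05 for 382, 587 and 647 features in skin and 196, 1055 and 1085 in lung. Strain F tests called 33 features in skin and 258 in lung, 3 and 47 with irradiated arrays only, 10 in lung with control and 1 h arrays only or without the 4 arrays, and 0 to 59 in skin and 0 to 64 in lung with a strain left out. Within a strain, the deviations of arrays from group means correlated at -0.05 to 0.68 in skin and -0.05 to 0.71 in lung. Strain stayed in the fits as a factor.

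The skin minus lung level of Ephx1 reversed to 0.16 without the 4 arrays and was -0.14 with controls only, -0.45 with 24 separate arrays (the same value as over strain means, with a larger error) and -0.54 to -0.40 without single strains. That of Dcxr was -0.75 with no centring, -0.68 with quantile normalization, -1.12 with controls only, -0.55 with no replicate block and -0.79 to -0.38 without single strains. That of Gsto1 was 0.068 with controls only and 0.59 to 0.92 without single strains, and that of Abcb1b 0.30 and 0.98 to 1.26. Leaving out the replicate block cannot change these differences, since each strain has both tissues, and alters only their error. The causes were not tested.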

Other observations

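At 12 h, 5 features, or 0.0571% of 8750, were at least 2-fold above control in all 3 strains of both tissues. They were Ccng1, a p53 target that encodes cyclin G1, Ctsf, Exoc4, the acute phase gene Serpina3n and 1 probe with no single gene symbol. At 72 h the 2 such features (0.0229%) were Ccng1 and Exoc4, and at 1 h there were 0. None of the 4 detoxification genes met this measure in both tissues.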
